A study of Mus musculus with 10 samples.

Results

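The nuclear-encoded subunits of the respiratory chain were compared between WEHI 164 tumors of mice that later responded to a poly(I:C) hydrogel and tumors of mice that did not. The genes were chosen by symbol: those of complex I named Nduf with an a, b, c, s or v and a number, Sdha to Sdhd of complex II, those starting Uqcr for complex III, Cox4 to Cox8 for complex IV and Atp5 for complex V, without symbols marked as pseudogenes. The rule found 87 genes among 35958 features: 40 of complex I, 4 of complex II, 8 of complex III, 18 of complex IV and 17 of complex V. WEHI 164 (WEHI-164 in the labels) is a mouse fibrosarcoma line, and its cells were grown under the skin of female wild-type BALB/c mice. A piece of each tumor was cut out at surgery and stored before any treatment, poly(I:C) gel was then laid on the residual tumor, and the outcome was recorded as responder (RS, complete regression) or non-responder (NR, no growth delay). All 10 tumors were therefore untreated, wild-type and of the same line when sampled, and the labels separate the groups only by what happened afterwards. There were 5 responders (tumors 5, 9, 10, 11 and 12) and 5 non-responders (tumors 1, 2, 3, 6 and 7), each tumor from 1 mouse. PolyA RNA was sequenced in pairs of reads, and the estimated counts summed to between 16002949 and 31160790 per responder and between 19863863 and 28276142 per non-responder. Levels are given as CPM, the count of a gene relative to the total of its tumor, scaled between tumors by edgeR's TMM factors.

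The respiratory chain moves electrons from NADH and succinate to oxygen through complexes I to IV in the inner mitochondrial membrane, and the proton gradient that this builds drives ATP synthesis by complex V. Most subunits are encoded in the nucleus and imported, while a few subunits of complexes I, III, IV and V are encoded in mitochondrial DNA. None of the 13 subunit genes of mitochondrial DNA was found by symbol among the deposited counts, so they were not analysed here. Several complex IV subunits have tissue forms: Cox6a2, Cox7a1 and Cox8b are the heart and skeletal muscle forms of subunits that other tissues build from Cox6a1, Cox7a2 and Cox8a. The samples were whole pieces of tumor, in which fewer cells of a type and less RNA per cell cannot be told apart. Fibroblast markers were abundant in every piece. Vimentin (Vim), an intermediate filament of mesenchymal cells, was at 4595, 4670, 4705, 4714 and 5616 CPM in responders and at 4241, 4292, 4895, 4935 and 4949 CPM in non-responders. Of 10 keratinocyte genes, Krt10 and Trp63 passed the filter, at 53 to 94 and 27 to 107 counts per tumor, Krt1 had no count, and the others had at most 7 counts in any tumor.

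No respiratory chain gene passed the test for a difference between responders and non-responders. Of the 87 genes, 81 passed the filter on low counts and were tested. At an adjusted p under 0.05 (edgeR quasi-likelihood test, Benjamini-Hochberg over all 15767 features tested), 0 of the 81 were called, and the same test called 0 features in the whole table, which is 0% of those tested. At an unadjusted p under 0.05 the count was also 0 of 81, against 1295 features in the whole table (8.21%), and DESeq2 and limma voom likewise gave 0 of 81 at either threshold. No gene of the chain had groups that did not overlap, against 146 features of the whole table (0.926%), in 53 of which every responder was higher (0.336%). Adjusted p-values (edgeR) of the 81 genes lay between 0.620 and 0.999.

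The intervals around these differences were narrow. For 78 of the 81 genes the 95% confidence interval of the fold change lay within 1.25-fold in either direction, which held for 9119 of all features tested (57.8%). These shares compare unlike levels: 77 of the 81 genes had a mean of at least 10 CPM, against 9985 of the 15767 features. The share among features of similar level was not computed. The 3 genes with wider intervals were Cox4i2, Cox6a2 and Cox7a1, all tissue forms with fewer than 60 counts in any tumor. The log2 fold changes, responders over non-responders, reached 0.27 for Cox4i2, with a median of 0.03 against -0.0036 over all features. With 1 tumor left out the median lay between 0.015 (without non-responder 1) and 0.061 (without responder 5). They were above 0 for 60 of 81 genes, against 48.6% of all features, and this count ran from 59 of 81 with library size alone to 63 of 81 with unnamed rows left out, and was 68 with the muscle covariate described further on. Because many of the genes rise and fall together from tumor to tumor, as given further on, the 81 signs are not separate observations. Leaving out 1 tumor at a time moved the count from 51 (without non-responder 1, and also without non-responder 3) to 72 (without responder 5).

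**Figure D1:**
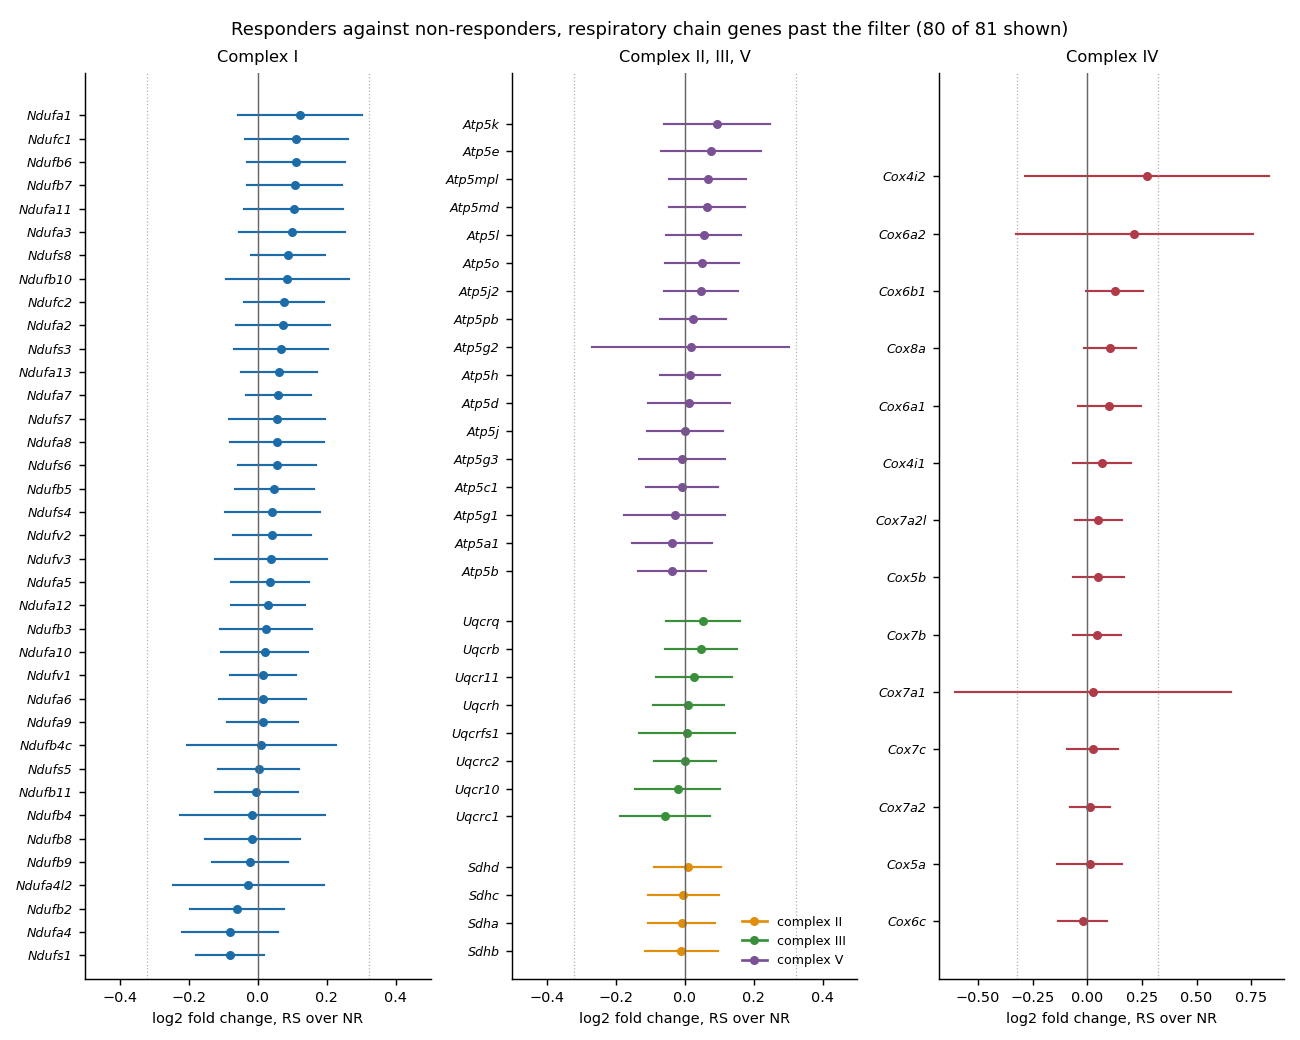
Log2 fold change of the tested respiratory chain genes, all but 1 shown, responders over non-responders (x axis), with its 95% confidence interval as a line, in 3 panels by complex (the complex IV panel has a wider axis). Dotted lines mark a 1.25-fold change; every interval shown includes 0, and those of Cox4i2, Cox6a2 and Cox7a1 reach past the dotted lines.

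In complex I, 38 of 40 genes were tested, 29 had a log2 fold change above 0, and the median was 0.04. The tested genes include Ndufb4c (log2 fold change 0.010), which is annotated as a processed pseudogene although its symbol does not mark it. Core subunits of the complex carry the flavin and the iron-sulfur clusters. Ndufs1, the largest iron-sulfur subunit, was at 116, 117, 120, 127 and 128 CPM in responders and at 122, 126, 126, 134 and 135 CPM in non-responders (log2 fold change -0.08 ± 0.045 SE, edgeR adjusted p = 0.666). Ndufs8, another iron-sulfur subunit, pointed the other way, at 49.3, 50.2, 52.7, 54.2 and 54.8 CPM in responders and 46.1, 47.6, 49.7, 50.5 and 52.0 CPM in non-responders (log2 fold change 0.09 ± 0.050 SE, edgeR adjusted p = 0.674). The groups of both genes overlapped. The core subunits Ndufs3, Ndufs7, Ndufv1 (which binds NADH) and Ndufv2, had log2 fold changes between 0.02 and 0.07, and the groups overlapped in each.

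In complex II, which oxidizes succinate as part of the TCA cycle, the 4 genes were the closest to equal of any complex. Sdha, the flavin subunit, was at 180 ± 6.81 CPM in the responder tumors against 181 ± 8.81 CPM in the others (mean ± SD of 5 tumors each), and Sdhb, the iron-sulfur subunit, at 103 ± 4.65 and 104 ± 5.90 CPM. The membrane anchors gave 105 ± 2.21 and 105 ± 6.92 CPM for Sdhc and 99.9 ± 5.07 and 99.3 ± 3.63 CPM for Sdhd. All 4 log2 fold changes lay between -0.010 and 0.0081. The median of complex III was likewise near 0, at 0.0085 over 8 genes, 5 of them above 0. Uqcrc1, a core protein of that complex, was at 74.1 ± 6.36 CPM in responders, against 77.2 ± 3.82 CPM in non-responders, and its partner Uqcrc2 at 113 ± 4.27 and 113 ± 4.08 CPM. Uqcrfs1, the Rieske iron-sulfur protein, was at 74.2 ± 5.38 and 73.9 ± 5.91 CPM, and Uqcrq, a small subunit, at 88.8 ± 4.85 and 85.5 ± 4.12 CPM.

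Complex IV, cytochrome c oxidase, had the highest median log2 fold change, 0.05, with 13 of 14 tested genes above 0 and Cox6c, at -0.02, below. With 1 tumor left out this median lay between 0.043 and 0.080, against 0.018 to 0.066 for complex I, -0.030 to 0.020 for complex II, -0.0096 to 0.040 for complex III and 0.00043 to 0.049 for complex V. Cox6b1, a subunit facing the intermembrane space, had the smallest p of all 81 genes. It was at 77.9, 84.3, 85.4, 87.1 and 96.2 CPM in responders and at 75.1, 75.5, 75.5, 82.7 and 86.7 CPM in non-responders. Responder 11 was the highest of all and 3 non-responders were below every responder, yet non-responder 6 exceeded 3 of the 5 responders (log2 fold change 0.12 ± 0.061 SE, edgeR adjusted p = 0.620). Cox8a was at 120, 140, 142, 143 and 148 CPM in responders and at 123, 128, 128, 131 and 135 CPM in non-responders. Here 4 responders stood above all non-responders and responder 5 was the lowest of the 10 tumors (log2 fold change 0.10 ± 0.055 SE, edgeR adjusted p = 0.649). Cox4i1, the main form of the regulatory subunit that binds ATP, was at 238 ± 11.05 CPM in responders, against 227 ± 21.0 CPM in non-responders, and Cox7a2l, which joins complexes III and IV into supercomplexes, at 138 ± 3.39 and 133 ± 9.05 CPM. Ndufa4, whose symbol places it in complex I although its protein is found in complex IV, had the opposite sign to most of that complex, at 54.5 ± 2.42 and 57.6 ± 5.41 CPM (log2 fold change -0.08 ± 0.064 SE, edgeR adjusted p = 0.755).

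In complex V, all 17 genes were tested, 12 were above 0 and the median log2 fold change was 0.02. In the catalytic head no gene was called and the groups overlapped. Atp5b, the beta subunit that holds the catalytic sites, was at 1026, 1067, 1084, 1101 and 1153 CPM in responders and at 1069, 1075, 1122, 1143 and 1164 CPM in non-responders (log2 fold change -0.04 ± 0.046 SE, edgeR adjusted p = 0.857). Atp5a1, the alpha subunit, was at 280 ± 12.2 and 288 ± 19.7 CPM, and Atp5c1, the gamma subunit of the central stalk, at 249 ± 10.6 and 250 ± 13.1 CPM. Atp5k, the small membrane subunit e, had the smallest p of complex V, at 29.2 ± 2.28 and 27.5 ± 2.29 CPM (edgeR adjusted p = 0.751). Subunit c, which forms the rotating ring, is made from 3 genes that encode the same mature protein. Per kilobase of transcript, Atp5g3 gave 85.2% to 88.2% of their summed level in each tumor, Atp5g2 6.23% to 9.82% and Atp5g1 4.86% to 5.92%. These shares depended on the transcript length: with the longest transcript of each gene, an alternative added after the values were seen, that of Atp5g1 was 2.85% to 3.49%, that of Atp5g2 5.86% to 9.24% and that of Atp5g3 87.9% to 90.8%. Without regard to length, Atp5g1 was above Atp5g2, at 45.8 ± 3.50 against 17.2 ± 2.79 CPM (mean ± SD of 10 tumors). The groups overlapped in these shares: by the median transcript, that of Atp5g3 was 86.8% ± 1.10 in responders and 86.8% ± 0.935 in non-responders.

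The muscle forms were close to the limit of detection in every tumor. Cox6a2 was at 1.25, 1.36, 1.69, 1.89 and 1.97 CPM in responders and at 0.754, 1.17, 1.25, 1.76 and 2.12 CPM in non-responders. Both the lowest and the highest value were in non-responders, tumors 3 and 6 (log2 fold change 0.22 ± 0.25 SE, edgeR adjusted p = 0.848). Cox7a1 was at 0.345, 0.466, 0.493, 0.625 and 0.650 CPM in responders and at 0.321, 0.361, 0.508, 0.660 and 0.704 CPM in non-responders, which were 8 to 20 counts per tumor, and the groups overlapped almost completely (log2 fold change 0.03 ± 0.29 SE, edgeR adjusted p = 0.992). Per kilobase of transcript, Cox6a2 made up 0.755% to 1.78% of the sum of Cox6a2 and Cox6a1, and Cox7a1 0.667% to 1.51% of the sum with Cox7a2. Cox8b did not pass the filter: it had no count in responder 9 and at most 14 in any tumor, and made up at most 0.467% of the sum with Cox8a.

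Other tissue forms gave the same picture, with 1 exception. Cox4i2, the form of lung and of pericytes, was at 0.582, 1.06, 1.08, 1.15 and 1.33 CPM in responders and at 0.607, 0.767, 0.836, 0.900 and 1.26 CPM in non-responders. Responders 9 to 12 stood above 4 of the 5 non-responders, and responder 5 was the lowest tumor (log2 fold change 0.27 ± 0.26 SE, edgeR adjusted p = 0.802). The testis forms Cox6b2, Cox7b2 and Cox8c did not pass the filter: Cox8c had no count in any tumor, Cox7b2 had 1 count in all, and Cox6b2 had 1 to 8 counts per tumor. The exception in level was Ndufa4l2, a relative of Ndufa4 that is induced by hypoxia, at 18.2, 22.5, 25.1, 26.0 and 28.2 CPM in responders and at 22.0, 23.7, 24.7, 25.5 and 26.3 CPM in non-responders. Per kilobase it made up 13.4% to 19.8% of the sum with Ndufa4, or 17.04% to 24.7% with the longest transcripts. Responders held both extremes of its CPM, with tumor 5 lowest and tumor 12 highest (edgeR adjusted p = 0.963).

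Markers of skeletal muscle were present in every piece. Of 24 muscle genes listed, 23 passed the filter, none was at 0 in all tumors, and their summed level was 511 ± 82.9 CPM in responders, against 569 ± 77.2 CPM in non-responders. The most abundant was Eno3, an enolase at a mean of 290 CPM whose values were nearly constant (coefficient of variation 3.75% over 10 tumors). Without Eno3 the sum was 157, 175, 214, 214 and 354 CPM in responders and 177, 218, 312, 331 and 344 CPM in non-responders, with alpha-actin 1 (Acta1) as the most abundant gene. The means were 223 ± 77.5 and 276 ± 74.2 CPM, tumors with a low sum were found in both groups and the highest was responder 11. Of the 23 genes tested, 17 had a log2 fold change below 0, and the median was -0.20. Of the 23, 2 (8.70%) had an unadjusted p under 0.05, against 8.21% of all features, both lower in responders: creatine kinase Ckm (log2 fold change -0.75 ± 0.31 SE) and the fast myosin heavy chain Myh4 (-0.86 ± 0.40 SE), with adjusted p of 0.591 and 0.607 (edgeR). The muscle forms stood differently to this sum. Cox6a2 was highest in non-responder 6 (sum 331 CPM) and next in responder 10 (214 CPM), while non-responder 7, with the second highest sum, had 1.17 CPM of Cox6a2. Cox8b was highest in responder 11, which had the highest sum, next in non-responder 6, and without a count in responder 9, which had the lowest (157 CPM). Cox7a1 was highest in non-responder 3 (177 CPM).

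**Figure D2:**
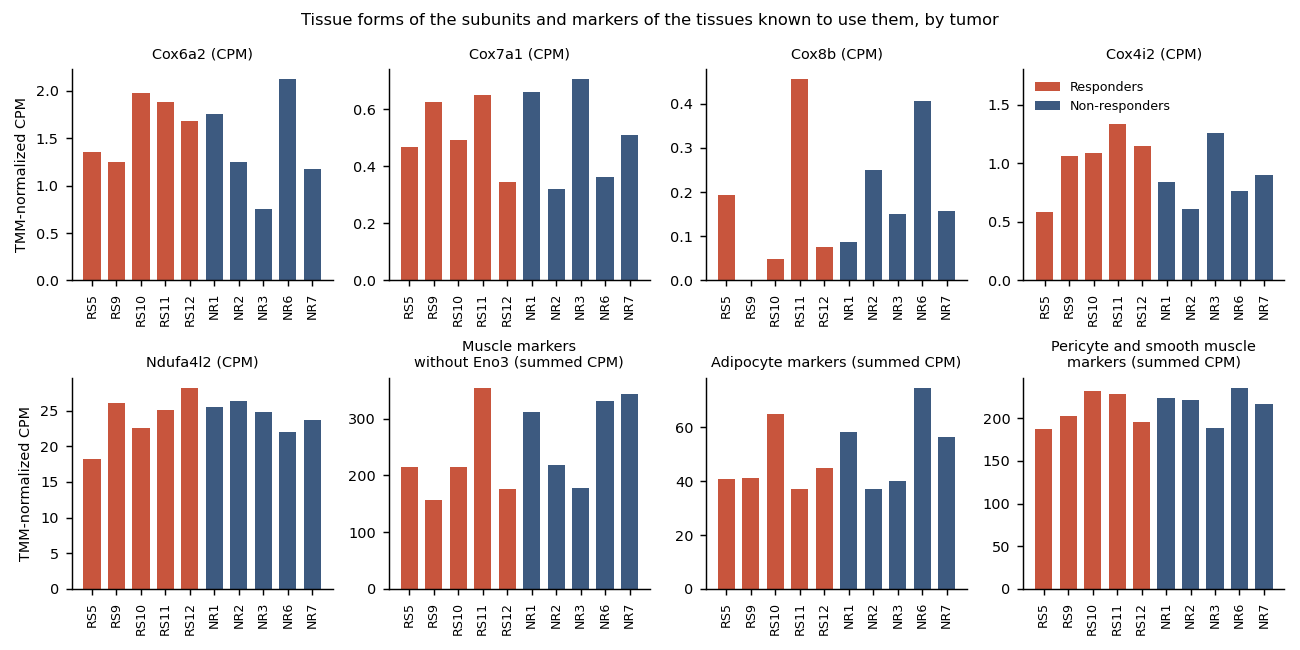
TMM-normalized CPM of 5 tissue forms in each tumor (bars, red for responders and blue for non-responders, y axis from 0), with the summed CPM of markers of skeletal muscle (without Eno3), adipocytes, and pericytes and smooth muscle. Cox6a2, Cox7a1, Cox8b and Cox4i2 stay below 2.2 CPM in all 10 tumors while Ndufa4l2 is above 18 CPM in each, and no panel separates the groups.

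With the muscle marker sum as a covariate, 8 of the 81 genes had an unadjusted p under 0.05, all higher in responders (Ndufa8, Ndufb7, Ndufb6, Cox8a, Cox6b1, Cox6a1, Cox5b and Atp5k), against 10.6% of all features in the same fit, and none passed adjustment (smallest edgeR adjusted p = 0.368). With the sum without Eno3, an alternative added after the values were seen, the count was 5 of 81. Leaving out responder 5 gave 5 of 81, all higher in responders (Ndufc2, Ndufb6, Cox8a, Cox6b1 and Atp5l), against 13.6% of all features, with a smallest adjusted p of 0.135 (edgeR). The shares of genes higher in responders, 9.88% of the 81 with the covariate and 6.17% with either of the others, stood beside 5.51%, 5.20% and 6.85% of all features higher in the same fits (with the covariate, with it without Eno3, and without responder 5), and none of the 81 was lower at that threshold in these fits.

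Summed over all 87 genes, responders were at 6857, 7152, 7234, 7371 and 7593 CPM and non-responders at 6869, 6875, 7293, 7353 and 7544 CPM, so the ranges nearly coincided. The means were 7241 ± 272 and 7187 ± 302 CPM. Complex I was at 2005 ± 72.2 CPM in responders, against 1984 ± 83.1 CPM in non-responders, complex II at 487 ± 11.9 and 489 ± 22.7, complex III at 609 ± 23.1 and 605 ± 26.9, complex IV at 1288 ± 64.7 and 1241 ± 57.9, and complex V at 2853 ± 113 and 2868 ± 120. With 1 tumor left out, the difference of these means changed sign for complexes I (-4.05 to 52.2 CPM), II (-9.20 to 5.53), III (-3.39 to 13.4) and V (-49.01 to 20.3), and stayed above 0 for complex IV (30.96 to 74.8). The highest tumor exceeded the lowest by a factor of 1.11 for complexes I and V, 1.12 for complexes II and III, and 1.15 for complex IV.

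In 6 of the 10 tumors the 5 complexes lay on the same side of their means, and in 4 they did not. Responder 5 and non-responders 1 and 3 were below the mean of the 10 tumors in every complex, at 93.4% to 98.3% of it, and responders 11 and 12 and non-responder 6 were above it in every complex, at 101% to 108%. The other 4 split: responder 9 was at 101% for complexes I and IV and 96.6% for complex V, responder 10 at 99.1% for complex I and 102% for complexes III and IV, non-responder 2 at 103% for complex V and 99.5% for complex IV, and non-responder 7 at 104% for complex II and 98.03% for complex IV. Counted gene by gene, 6 of 81 genes were above their 10-tumor median in responder 5, 10 in non-responder 1 and 12 in non-responder 3, but 69 in responder 11, 67 in responder 12 and 63 in non-responder 6. In the remaining tumors the count was 37 to 49. Over all features tested the share above the median was 47.96% to 51.1% in every tumor. With other scalings (RLE, library size alone, upper quartile) the 3 low tumors stayed at 6 to 10 genes, except non-responder 3 at 12 with library size alone, and the 3 high ones at 59 to 71, while non-responder 7 moved from 37 to as many as 52. Low and high tumors both included responders and non-responders.

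**Figure D3:**
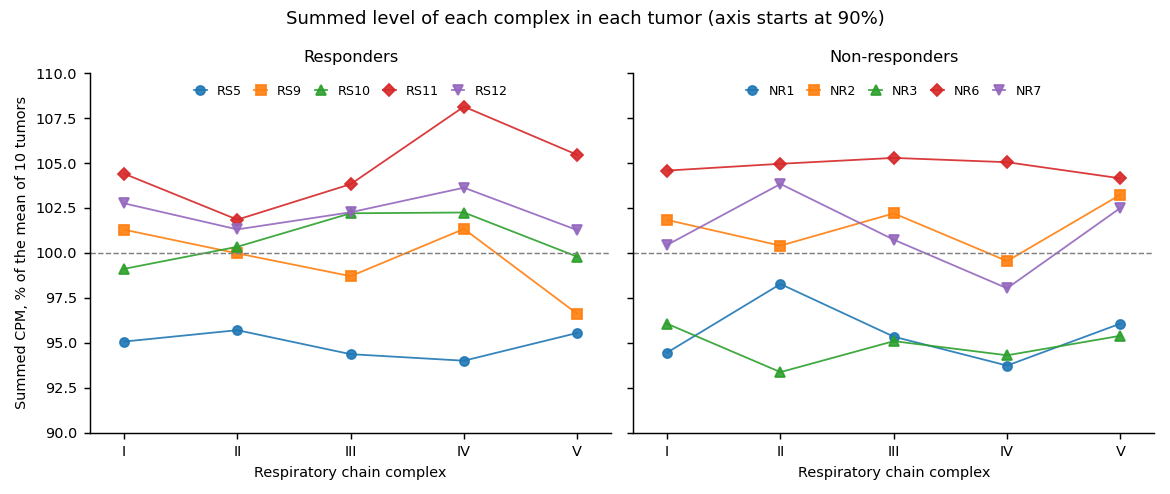
Summed CPM of each complex in each tumor, as a percentage of the mean of the 10 tumors (y axis, starting at 90%), with 1 line per tumor and responders and non-responders in separate panels. Responder 5 and non-responders 1 and 3 lie below 100% for all 5 complexes, and responder 11 and non-responder 6 lie above it.

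**Figure D4:**
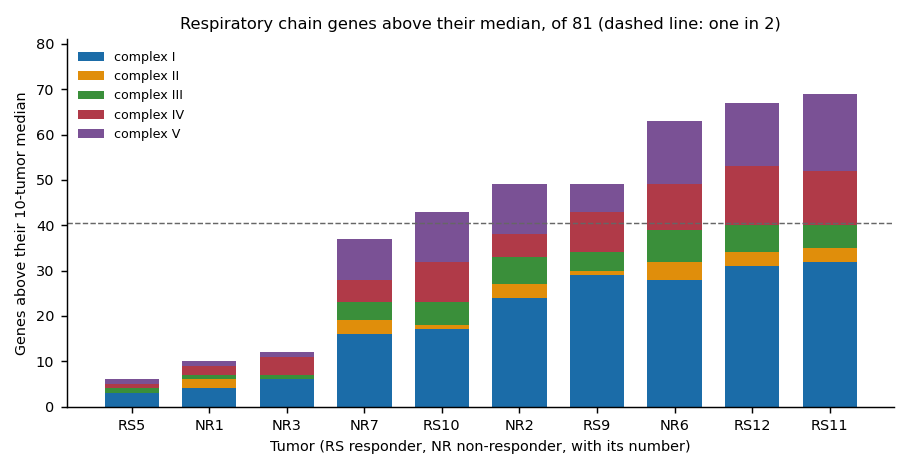
Number of the 81 tested genes that were above their own 10-tumor median in each tumor (bar height), split by complex (colors), with tumors in ascending order. The bars run from 6 in responder 5 to 69 in responder 11, and the dashed line marks 1 in 2 genes.

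The ratios to complex I varied less between tumors than the sums, with the highest exceeding the lowest by a factor of 1.06 to 1.07. Complex III over complex I, for example, was 0.304 ± 0.0063 in responders and 0.305 ± 0.0023 in non-responders. The ratio of complex IV to complex V, picked out after its values were seen and so given without a test, was 0.435, 0.452, 0.453, 0.453 and 0.464 in responders and 0.423, 0.426, 0.431, 0.437 and 0.446 in non-responders. Responders 9 to 12 were above all non-responders, and responder 5 fell among them. The spread of single genes was also small. The median coefficient of variation over the 10 tumors was 5.76% for the 81 genes, and among features with a mean of at least 10 CPM it was 5.62% for 77 genes of the chain against 6.96% for all 9985. Cox7a2 was the steadiest gene at 3.28%, and Cox6a2 the most variable at 28.2%.

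Sequencing depth did not follow the same order: the 3 low tumors had 19863863 to 25627675 estimated counts and the 3 high ones 22285984 to 31160790. Muscle marker sums without Eno3 were 177 to 312 CPM in the low tumors and 175 to 354 CPM in the high ones. Other mitochondrial genes followed these tumors in part. Of 78 genes of the mitochondrial ribosome, which translates the messages of mitochondrial DNA, 24, 18 and 16 were above their median in responder 5, non-responder 1 and non-responder 3, against 69 in responder 11 and 71 in non-responder 6, while responder 12 had 39. Of 16 genes of the TCA cycle and pyruvate dehydrogenase, 2, 5 and 3 were above their median in the 3 low tumors and 14, 11 and 14 in responders 11 and 12 and non-responder 6. In the same order of tumors, 17, 17 and 16 of 48 assembly factors were above their median against 29, 27 and 34, and 4, 1 and 1 of 9 carriers and partners against 7, 5 and 6. The 12 regulators of mitochondrial genes did not follow, with 6, 8 and 6 above their median in the low tumors and 3, 5 and 7 in the high ones. Hypoxia-induced genes took another order: 14, 14, 13, 11 and 11 of 14 were above their median in responders 9 and 12, non-responder 2, responder 11 and non-responder 3, against at most 4 in the others. The part of any of these in the variation between tumors was not tested.

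The sequences ahead of the starts of these genes were read from RefSeq (GRCm38.p6). Windows of 300 bases, from 250 before to 50 after the most upstream start, were found for 68 of the 87 genes. Both strands were searched for 4 short motifs of factors known to act on these genes: GCATGCG for NRF1, CCGGAAG for GABP and other ETS factors, GATGGCG for YY1, and AAGGTCA for the estrogen-related receptors (ERR). Those of NRF1, YY1 and ERR are short cores, taken up after longer forms had been searched in the same windows. The longer NRF1 form, which had a free base, matched more windows of these genes, and the longer YY1 and ERR forms fewer. Motifs of CCAAT-binding factors, SP1, hypoxia-inducible factors and MEF2 were also searched and are not reported, so the choice of the 4 was made after matches were seen. None of the 4 is contained in another, and a match to the NRF1 letters on one strand can overlap a match on the other. The NRF1 letters were in 10 of 68 windows (14.7%), against 3.65% of all 27025 windows and 5.98% of the 11532 windows of tested features. The ETS letters were in 16 of 68 (23.5%, against 9.14% and 16.5%), those of YY1 in 9 (13.2%, against 3.65% and 5.92%) and those of ERR in 8 (11.8%, against 4.65% and 3.09%). At least 1 of the 4 was in 33 of 68 windows (48.5%), against 27.9% of the windows of tested features, while median GC content was 57.2% and 60%. These matches describe letters and were not tested as binding sites. Whether genes with a match moved together between tumors more than genes without was not tested.

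The 250 bases before the start are printed for 1 gene of each complex, the one with most of the 4 motifs in that stretch and, where equal, the higher level, to show how the letters lie ahead of genes of different complexes. The length of the stretch and the genes shown were settled with the matches known. Cox7a1 is added as a muscle form whose printed stretch holds none of the 4. This is not particular to it: only 33 of the 68 whole windows held any, and those of Cox7a2 and Cox5a held none. Sequences run 5′ to 3′ on the strand of the gene, with motif matches in capitals. Ndufa6 is at chr15:82354292-82354541, Uqcrh at chr4:116075071-116075320, Cox6a1 at chr5:115348959-115349208 and Atp5l at chr9:44920743-44920992, all on the minus strand, and Sdhb at chr4:140961021-140961270 and Cox7a1 at chr7:30183921-30184170, both on the plus strand (GRCm38.p6).
Ndufa6: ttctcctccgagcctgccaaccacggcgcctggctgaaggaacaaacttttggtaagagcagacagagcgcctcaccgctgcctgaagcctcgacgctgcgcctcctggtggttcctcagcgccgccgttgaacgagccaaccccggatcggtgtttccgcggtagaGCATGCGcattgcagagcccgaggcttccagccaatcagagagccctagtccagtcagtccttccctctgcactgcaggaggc
Sdhb: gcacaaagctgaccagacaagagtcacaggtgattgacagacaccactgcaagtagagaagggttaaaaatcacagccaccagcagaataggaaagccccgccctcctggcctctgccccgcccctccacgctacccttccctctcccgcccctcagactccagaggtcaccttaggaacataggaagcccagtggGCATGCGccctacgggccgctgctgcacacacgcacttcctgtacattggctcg
Uqcrh: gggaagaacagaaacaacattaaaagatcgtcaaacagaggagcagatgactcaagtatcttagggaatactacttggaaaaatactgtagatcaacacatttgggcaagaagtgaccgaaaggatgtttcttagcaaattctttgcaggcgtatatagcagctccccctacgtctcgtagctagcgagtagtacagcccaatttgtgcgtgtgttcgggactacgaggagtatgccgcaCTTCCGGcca
Cox6a1: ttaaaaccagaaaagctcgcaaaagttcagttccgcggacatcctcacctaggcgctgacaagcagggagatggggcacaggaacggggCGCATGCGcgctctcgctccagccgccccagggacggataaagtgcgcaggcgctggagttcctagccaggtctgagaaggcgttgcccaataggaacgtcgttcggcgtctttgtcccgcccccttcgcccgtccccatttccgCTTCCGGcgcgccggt
Atp5l: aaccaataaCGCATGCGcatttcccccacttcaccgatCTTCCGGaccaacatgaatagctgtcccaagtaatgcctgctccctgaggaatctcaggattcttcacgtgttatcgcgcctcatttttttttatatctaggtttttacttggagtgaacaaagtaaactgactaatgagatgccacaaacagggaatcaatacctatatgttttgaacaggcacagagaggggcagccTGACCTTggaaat
Cox7a1: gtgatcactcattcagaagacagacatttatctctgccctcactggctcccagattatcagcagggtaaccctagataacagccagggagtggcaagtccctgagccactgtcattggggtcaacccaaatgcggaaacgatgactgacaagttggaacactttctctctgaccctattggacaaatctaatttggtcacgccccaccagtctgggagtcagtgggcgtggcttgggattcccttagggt
In Ndufa6 and Sdhb the capitals are an NRF1 match, and in Uqcrh an ETS match. Cox6a1 and Atp5l hold NRF1 letters on both strands, which overlap, and an ETS match, and Atp5l also an ERR match. Between responders and non-responders the log2 fold changes were 0.01 for Ndufa6, -0.01 for Sdhb, 0.01 for Uqcrh, 0.10 for Cox6a1 and 0.05 for Atp5l, and no adjusted p of these was under 0.05 (edgeR). The Cox7a1 stretch held 4 CG pairs, against 7 to 26 in the 5 others. Those 5 were chosen for motif matches, and the NRF1 and ETS letters themselves hold a CG, so these counts are no fair comparison. In the whole windows of 300 bases Cox7a1 had 7 CG pairs, against a median of 19 over the 68 genes. The muscle form Cox8b had 2 there, but Cox7b had 5 and Ndufc2 8.

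Levels per kilobase of transcript differed between the complexes. The median over genes was 57.2 CPM per kilobase for complex I, 95.04 for complex II, 129 for complex III, 144 for complex IV and 141 for complex V. Atp5b was the highest at 574 CPM per kilobase and Cox4i1 the next at 312, and both kept these places when the longest transcript of each gene replaced the median one. The lowest genes past the filter were the tissue forms of complex IV, Cox7a1 at 1.17 and Cox4i2 at 1.31, followed by Cox6a2 at 2.24. Of the complex I genes the lowest was Ndufb4, at 9.79, part of whose sequence recurs in Ndufb4c, as given further on. With the longest transcript Ndufb2 was the lowest, at 5.66. The highest by the median transcript was Ndufs1, whose 192 became 47.0 with the longest transcript. Levels depended on the transcript length used in every complex: with the longest transcript the medians were 49.6, 71.5, 87.1, 127 and 106 CPM per kilobase for complexes I to V, and Sdhc, for example, went from 128 to 33.0 and Uqcrq from 173 to 57.3.

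**Figure D5:**
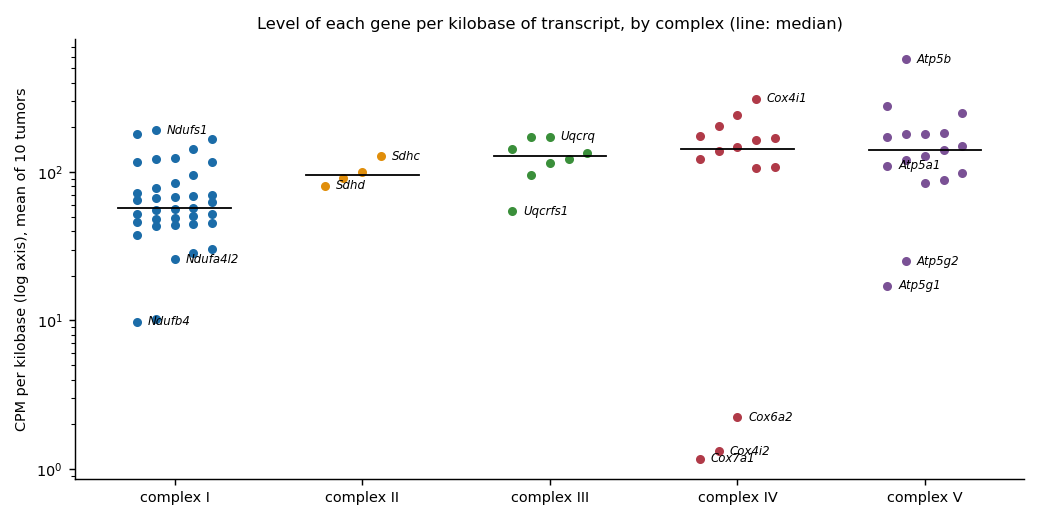
Level of each tested gene with a transcript length, in CPM per kilobase of median transcript length (y axis, log scale). Values are means of the 10 tumors, in columns by complex with the median as a line. Ndufb4c was tested but had no transcript length, so it has no level here. Atp5b is the highest point at 574, and the complex IV column holds both Cox4i1 at 312 and the tissue forms Cox6a2, Cox4i2 and Cox7a1 below 3.

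Genes around the chain gave no call either. Assembly factors, which build the complexes but do not remain in them, were represented by 48 genes, all tested. None passed adjustment (edgeR), 2 were higher in responders at an unadjusted p under 0.05 (4.21% of all features) and 1 was lower (4% of all features), and the median log2 fold change was 0.0058. Ndufaf5, a hydroxylase needed for complex I, was at 12.8, 13.7, 13.8, 14.1 and 14.2 CPM in responders and 11.9, 12.1, 12.2, 12.4 and 12.9 CPM in non-responders (log2 fold change 0.15 ± 0.061 SE, edgeR adjusted p = 0.587). Only non-responder 3 reached into the range of the responders. The complex III factors Uqcc3 (log2 fold change 0.22) and Uqcc1 (-0.14) moved apart from each other at an unadjusted p under 0.05. Cox15, which makes heme A for complex IV, was named after its values were seen as the assembly factor whose groups did not overlap: it was at 30.2 to 32.3 CPM in responders and 29.3 to 30.1 CPM in non-responders (edgeR adjusted p = 0.748; 0.336% of all features in that direction). Coa5, a complex IV factor and the most abundant of the list, was at 97.2 ± 4.32 and 94.97 ± 6.20 CPM.

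Factors that act on mitochondrial genes did not pass adjustment. Of 12 such genes, 3 (25%) were lower at an unadjusted p under 0.05, against 4% of all features, and none higher, and the median log2 fold change was -0.07. Polrmt, the RNA polymerase of mitochondria, was at 33.4, 34.0, 34.0, 35.2 and 36.0 CPM in responders and 36.7, 37.2, 37.4, 37.6 and 40.8 CPM in non-responders. Its groups did not overlap, as for 93 of all features in that direction (0.590%), and it was named after its values were seen (log2 fold change -0.14 ± 0.047 SE, edgeR adjusted p = 0.580). Tfb2m, which opens mitochondrial promoters together with Polrmt, was at 33.4, 33.6, 35.0, 36.8 and 37.9 CPM in responders and 36.2, 38.9, 40.2, 40.7 and 43.3 CPM in non-responders (log2 fold change -0.17 ± 0.059 SE, edgeR adjusted p = 0.580). Yy1 was the remaining gene (-0.10 ± 0.048 SE, adjusted p = 0.607). The factors whose motifs were searched above had no call: Nrf1 was at 53.8 ± 1.72 and 52.6 ± 1.55 CPM, Gabpa at 79.7 ± 5.70 and 84.1 ± 2.36 CPM, and Esrra at 35.6 ± 2.92 and 34.7 ± 2.10 CPM. Myc, a growth regulator and the most abundant of the list, was at 253 ± 28.7 and 265 ± 23.9 CPM, and the coactivator Ppargc1a at 8.16 ± 1.07 and 6.94 ± 1.497 CPM.

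Of the 78 genes of the mitochondrial ribosome, 2 were higher (Mrps21 and Mrpl28) and 2 lower (Mrpl3 and Mrpl23) in responders at an unadjusted p under 0.05, together 5.13% against 8.21% of all features, with a median log2 fold change of 0.0093. Mrps21 was at 36.5 ± 2.28 and 33.5 ± 0.896 CPM (log2 fold change 0.13 ± 0.053 SE, edgeR adjusted p = 0.591), and the groups of Mrpl3 did not overlap, at 50.6 to 54.0 CPM in responders and 54.4 to 61.3 CPM in non-responders (0.590% of all features in that direction). Mrpl38, the most abundant, was at 96.7 ± 6.23 and 94.5 ± 5.73 CPM. Of the 16 TCA cycle and pyruvate dehydrogenase genes none had an unadjusted p under 0.05. Pdha1, a pyruvate dehydrogenase subunit, was at 219 ± 10.7 and 230 ± 7.21 CPM. Among 9 carriers and partners of the chain outside the rule, none had an unadjusted p under 0.05. Cyc1, the cytochrome c1 of complex III, was at 152 ± 10.3 and 150 ± 9.37 CPM, and Atpif1, the inhibitor of complex V, at 92.2 ± 5.81 and 87.2 ± 4.04 CPM. The hypoxia list gave 0 of 14, with Ldha, which turns pyruvate to lactate, at 1233 ± 137 and 1197 ± 46.5 CPM and the glucose transporter Slc2a1 at 249 ± 60.8 and 202 ± 42.5 CPM.

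Lists of other cell types likewise gave no gene past adjustment. The counts that follow are at an unadjusted p under 0.05, at which 4% of all features were lower and 4.21% higher in responders. Of 11 tested markers of pericytes and smooth muscle, which use Cox4i2, 3 were lower in responders (Mcam, Notch3 and Abcc9) and 6 had a log2 fold change below 0, with Mcam at 50.8 ± 5.17 and 59.0 ± 4.21 CPM (edgeR adjusted p = 0.580), and the summed level was 209 ± 19.7 and 217 ± 17.7 CPM. Desmin (Des), the most abundant, was at 62.3 ± 24.4 and 57.9 ± 11.6 CPM. Of 10 endothelial genes 4 were lower (Cdh5, Kdr, Tie1 and Esam) and 9 had a log2 fold change below 0, with Esam, a junction protein, at 12.2 ± 1.49 and 14.9 ± 1.36 CPM and the abundant receptor Eng at 74.98 ± 6.46 and 78.5 ± 8.30 CPM. Of 10 adipocyte genes 2 were lower (the hormone Lep and the lipid droplet protein Plin4) and all 10 had a log2 fold change below 0, Fabp4 was the most abundant at 20.9 ± 4.58 and 22.0 ± 6.72 CPM, and the sum was 45.7 ± 11.03 and 53.2 ± 15.2 CPM. Brown fat also uses Cox7a1 and Cox8b, and its markers were at or near 0: Ucp1, which defines it, and Cidea each had 2 counts in all 10 tumors, and Dio2 was the most abundant of the 6 at a mean of 0.967 CPM, with Ppara giving the smallest p (edgeR adjusted p = 0.617). Of 10 fibroblast genes 8 had a log2 fold change below 0 and 2 were lower, Col1a1 (921 ± 88.5 and 1115 ± 133 CPM, edgeR adjusted p = 0.580) and Col3a1. The killer cell gene Nkg7 was higher among 9 leukocyte genes (8.75 ± 4.05 and 4.23 ± 1.47 CPM, edgeR adjusted p = 0.580), with Itgam, a myeloid integrin, the most abundant at 181 ± 14.1 and 173 ± 14.8 CPM. All 9 leukocyte genes had a log2 fold change above 0, and the sum of the list was 687 ± 78.3 and 622 ± 58.7 CPM. Trp63 was higher of 2 tested keratinocyte genes (3.23 ± 0.902 and 1.86 ± 0.530 CPM, edgeR adjusted p = 0.580), and Krt10 was at 3.10 ± 0.362 and 3.08 ± 0.514 CPM. Their part in the values of the chain was not tested.

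Some counts of the chain are less certain because their sequence recurs in other genes. As a measure, the share of a gene's 31-base words in annotated transcripts that occur in no other gene was computed for 84 of the 87 genes. It was at least 90% for 49 of them. It was lowest for Atp5l at 14.6%, Uqcrb at 41.8%, Atp5o at 43.1% and Ndufs3 at 45.0%, so the division of reads between these genes and their copies rests on the estimate of the quantification program. Ndufb4 shared 38.3% of its words with Ndufb4c, which GENCODE lists as a processed pseudogene and which was at 21.7 ± 1.22 CPM in responders, against 21.5 ± 3.37 CPM in non-responders. Ndufb4c is counted among the tested genes and in the sums of complex I. Ndufs6b, listed the same way as a pseudogene, had no count, and Ndufb11b had 4 counts in all.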

How the data were processed

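PolyA RNA of 10 untreated tumor pieces was analysed. The authors estimated transcript abundance with Kallisto and summed it to genes with tximport on mm10 (GRCm38), and deposited estimated counts per gene, not normalized. The annotation release is not given in the sources used here. Of 36009 rows, 9580 had no symbol (1.20% to 1.49% of counts). Rows of 1 symbol were summed and counts rounded. Features past the CPM filter that the study's methods give, in at least 3 tumors, were tested (15767) with edgeR 4.0.16 (TMM, quasi-likelihood, Benjamini-Hochberg), in R 4.3.3. Standard errors were taken from edgeR's F statistic. On simulated data for this comparison, 181 of 200 changed genes were called among 15573 genes (83% of 2-fold and 98% of 4-fold changes, with smaller changes not simulated), as were 7 unchanged genes. DESeq2 1.42.0, limma 3.58.1, scalings, filters, covariates and left-out tumors were alternatives. The members and lists were chosen with earlier results of these data known. Named genes were tissue forms and partners, core subunits and the smallest p in each direction per complex. Per list they were the most abundant and the smallest-p gene. Of genes named outside this rule, only some are marked. Others, such as Mrpl3, Mrpl23, Mrpl28, Uqcc1, Uqcc3, Yy1 and Plin4, were named for an unadjusted p under 0.05. Some genes under this rule are not reported here. Lengths and coordinates are from GENCODE vM21, and depth limits the genes of few counts.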

Additional observations from a re-analysis of the deposited data

Results flagged for a closer look

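Values stood apart from the other 4 tumors of their group in 4 of 88 sets of 5 tumors (Dixon's ratio above 0.71), and chance gives about 4.4. On the log2(CPM + 1) scale, Ndufs3 was at 5.04 in non-responder 6, above the others of that group, and Cox8a at 6.92 in responder 5, below the others of that group. The summed CPM of the skeletal muscle markers was 654 in responder 11, and that of the adipocyte markers 64.8 in responder 10, each above the other responders.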

How the results depend on the processing

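No member was called at an adjusted p under 0.05 under any alternative run, and depth limits the tissue forms, at 8 to 58 counts per tumor for Cox6a2 and Cox7a1. Of all features, 0 were called at an adjusted p under 0.05 (edgeR), 4 with DESeq2, and 0 to 9 with 1 tumor left out (9 without responder 5). Features with an unadjusted p under 0.05 numbered 1295, and 839 (without responder 11) to 2140 (without responder 5) with 1 tumor left out. For the members this count was 0, but 8 with the muscle covariate, 5 with that covariate without Eno3, and 0 to 5 with 1 tumor left out (5 without responder 5, 3 without non-responder 6). The cause was not tested.

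Reversed signs were those of uncalled estimates, many of them near 0. Des, at 0.11, and Fabp4, at -0.08 in the main fit, were further from it. With the muscle covariate the log2 fold change was 0.024 for Sdhb, 0.0067 for Sdha, 0.00018 for Atp5a1, 8.4e-05 for Atp5c1, 0.010 for Uqcrc2, 0.034 for Sdhc, 0.016 for Fabp4, -0.0091 for Krt10. Without Eno3 in it, it was 0.019 for Sdhb, 0.0022 for Sdha, 0.0052 for Uqcrc2, 0.031 for Sdhc, 0.023 for Fabp4, -0.016 for Krt10. Uqcrc2 was at 0.0037 with RLE, 0.0023 with no filter, 0.0035 with CPM above 1 in 5 tumors, 0.0049 without unnamed rows, 0.0036 with DESeq2, and Sdhc at 0.0012 without unnamed rows. With 1 tumor left out, ranges that crossed 0 were -0.014 to 0.034 (Sdhd), -0.031 to 0.020 (Sdhb), -0.053 to 0.012 (Cox6c), -0.031 to 0.015 (Sdha), -0.035 to 0.018 (Atp5c1), -0.017 to 0.022 (Uqcrc2), -0.0050 to 0.035 (Cox7a2), -0.0038 to 0.037 (Ndufv1), -0.035 to 0.044 (Uqcrfs1), -0.094 to 0.061 (Ndufa4l2), -0.035 to 0.021 (Sdhc), -0.11 to 0.16 (Cox7a1), -0.0011 to 0.063 (Coa5), -0.0095 to 0.058 (Cyc1), -0.13 to 0.25 (Des), -0.042 to 0.0040 (Eno3), -0.22 to 0.11 (Fabp4), -0.082 to 0.083 (Krt10), -0.11 to 0.0021 (Myc). Among the genes named by the rule given under the processing, no other changed sign. Signs of genes named outside that rule, such as Ndufa6 and Uqcrh, were not compared across the alternatives. The alternatives that need mitochondrial DNA genes were not run, because none of these genes was found by symbol among the deposited counts. No paired analysis was possible because the tumor numbers of the groups share none.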
